A study of Mus musculus with 11 samples.

Results

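The transcripts of 10 heat shock chaperones were followed in the gingival epithelium, the epithelial lining of the gums, of mice that had received diphtheria toxin (DT) or PBS around weaning. The 10 genes, Dnajb1, Dnaja1, Hspa1a, Hspa1b, Hspa8, Hsph1, Hsp90aa1, Hspb1, Hspd1 and Hspe1, were picked by name, with earlier results of the same comparison known, from 19170 genes with values in the deposited table. All of the mice were Langerin-DTR animals, in which the langerin promoter drives the receptor for diphtheria toxin, so that the toxin kills langerin-expressing cells, mainly the Langerhans cells of epithelia. The PBS group (n = 5 mice) carried the same allele as the DT group (n = 6 mice) and differed in the injected agent. The study states that injections were given on days 17, 24 and 31 of life and that the epithelium came from adult animals, names males of this strain in its methods and calls its groups sex-matched elsewhere. The comparison asks what the loss of these cells during weaning leaves behind in the adult epithelium.

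Heat shock proteins are molecular chaperones that bind unfolded or newly made proteins and help them to fold, to assemble or to be broken down. In the cytosol, J-domain co-chaperones deliver clients to HSP70 and start its ATP hydrolysis, exchange factors of the HSP110 family reset it, and HSP90 takes over later steps. Small heat shock proteins hold unfolded clients without ATP, and in mitochondria the HSP60 ring with its HSP10 lid encloses them. Many of these genes are switched on by heat shock factor 1, which binds inverted repeats of the triplet GAA in their promoters, the heat shock element. Stratified epithelia such as the epidermis and the oral mucosa contain much of the small heat shock protein that Hspb1 encodes.

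Promoters were available in the RefSeq table (GRCm38.p6, from 250 bases before to 50 bases after the annotated start) for 8 of the 10 genes, with 13 starts in all, while Hspa8 and Hsp90aa1 have no entry. They were searched for a pair of inverted repeats, spelled GAANNTTC or TTCNNGAA, which each read the same on both strands and can overlap each other. Such a pair was present in 8 of the 13 promoters and in 7 of the 8 genes, whereas 15.1% of the 32851 promoters of this length in the table hold one. The stricter triplet, GAANNTTCNNGAA or TTCNNGAANNTTC, was present in 4 of the 13 promoters, against 0.603% of all promoters. By gene it was present in Hspd1, Hspe1 and Hsph1, 3 of the 8, against 0.662% of all genes. A match of letters is a description and not a site shown to be bound.

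The stretches below are shown because they hold every matching pair in these promoters, with Dnajb1 for comparison as the gene without a match. Capitals mark the paired repeats. Hspd1 and Hspe1 lie head to head, and the same 18 bases hold the repeat run of both, read from opposite strands. The promoter of another annotated start of Hspd1 had 0 pairs. The Hspd1 stretch lies at chr1:55088053-55088082 on the minus strand and the Hspe1 stretch has the same coordinates on the plus strand.
Hspd1: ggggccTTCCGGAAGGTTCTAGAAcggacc
Hspe1: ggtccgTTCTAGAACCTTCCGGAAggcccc
In Hsph1 (minus strand) the triplet lies just downstream of the annotated start, at chr5:149636287-149636306, and a further pair lies upstream of it, at chr5:149636354-149636377.
Hsph1 downstream: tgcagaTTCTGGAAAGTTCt
Hsph1 upstream: tagaatctTTCTCGAAggctcgag
Hspa1a (chr17:34972217-34972296) and Hspa1b (chr17:34959299-34959378), both on the minus strand, carry a single pair in stretches that are letter for letter the same. Over the whole promoters 296 of 300 bases, or 98.7%, were identical.
Hspa1a: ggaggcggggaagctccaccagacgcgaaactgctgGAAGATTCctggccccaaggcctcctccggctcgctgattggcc
Hspa1b: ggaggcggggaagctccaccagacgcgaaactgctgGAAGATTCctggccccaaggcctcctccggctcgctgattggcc
Hspb1 has a pair of such sites, at chr5:135887776-135887855 on the plus strand, and Dnaja1 has 1, at chr4:40722333-40722362 on the plus strand. The promoters of the other annotated starts of Dnaja1 had 0 pairs.
Hspb1: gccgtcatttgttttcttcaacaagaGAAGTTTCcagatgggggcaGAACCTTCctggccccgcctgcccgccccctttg
Dnaja1: aaaagcctctaGAAAATTCtacgaggctcg
Dnajb1, at chr8:83608035-83608114 on the plus strand, is shown over the window that corresponds to that of Hspa1a.
Dnajb1: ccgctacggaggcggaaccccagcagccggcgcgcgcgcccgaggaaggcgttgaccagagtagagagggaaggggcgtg

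**Figure D1:**
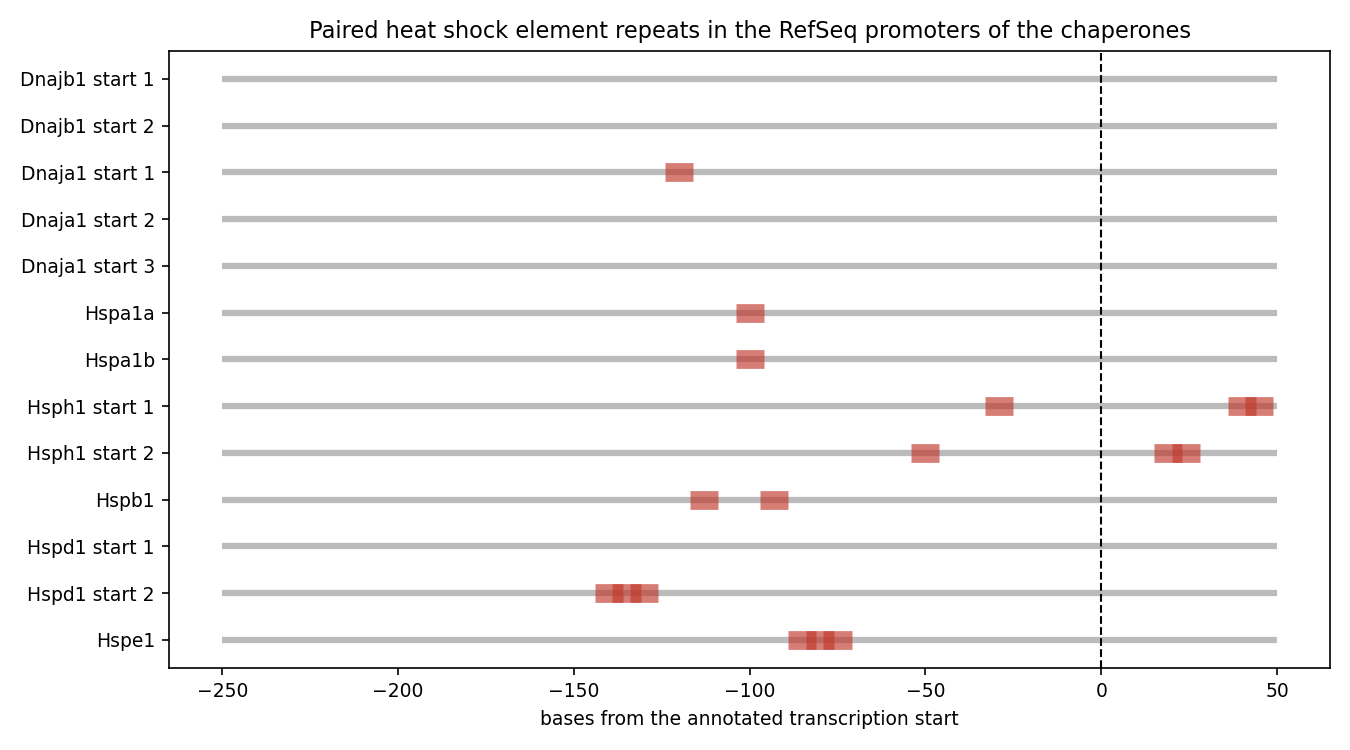
Positions of the paired heat shock element repeats (red) in the 13 RefSeq promoters of 8 chaperone genes (grey bars), with the horizontal axis in bases from the annotated start (dashed line). The pair of Hspa1a and that of Hspa1b begin 104 bases upstream of the start, the repeat runs of Hspd1 and Hspe1 begin 144 and 89 bases upstream, and both starts of Dnajb1 are without a match. Another start of Hspd1 and the other starts of Dnaja1 are also without a match.

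The 11 libraries held between 17509328 and 24325513 reads assigned to genes. Values are given as normalized counts, which the authors made by dividing the reads of a gene by a size factor for each library. Markers of keratinocytes, such as Krt5 and Krt14, dominated every library with 2795824 to 3114403 normalized counts over the 12 genes of the list, and those of T cells, melanocytes, endothelium and skeletal muscle summed to at most 143 normalized counts in any mouse, with Trac, Trdc, Tyr, Tyrp1 and Mlana without values. Fibroblast markers summed to 1120.3 to 1601 normalized counts over both groups, macrophage and monocyte markers to 290.1 to 534, and neutrophil markers to 673 to 3716, with Ly6g and Retnlg without values. Cd207, which encodes langerin, was at 10.0 to 43.0 normalized counts after PBS and 15.8 to 21.6 after DT, so the groups overlapped (adjusted p = 0.853 by limma). The study reports by flow cytometry that Langerhans cells were absent at weaning age after DT and back at normal frequencies in adulthood. The sequenced epithelium came from adult mice.

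Levels of the 10 chaperones spanned a wide range. Per kilobase of annotated exon, Hspb1 had by far the most transcript, with a mean of 20348 normalized counts per kb over the 11 mice. It was followed by Hspa8, the constitutive cytosolic HSP70, at 3067 and by Dnajb1 at 1994 normalized counts per kb. Hspa1b (1422) and Hspd1 (1320) came next and overlapped, since Hspa1b was above Hspd1 in 8 of 11 mice. Hsp90aa1, the inducible HSP90 alpha, and Hspe1 lay at 736 and 690 normalized counts per kb and also overlapped, with Hsp90aa1 higher in 9 of 11 mice. Hspa1a stood at 407, Hsph1 at 252 and Dnaja1 at 101 normalized counts per kb, and each of the other neighbours kept its order in 11 of 11 mice. Divided by the principal transcript in place of all exons merged, the order changed within the middle of the list, with Hspd1 (1439) above Hspa1b (1422), Hspe1 (1313) above Hsp90aa1 (882) and Hsph1 (482) above Hspa1a (407 normalized counts per kb). Division by length assumes reads along whole transcripts, which is not settled for these libraries. Undivided, Hspb1 averaged 20979 and Hspa8 13191 normalized counts, and Hsp90aa1 (2895) and Hspe1 (1017) did not overlap. Together the 10 genes took 0.252% ± 0.012 of all normalized counts after PBS (SD, n = 5) and 0.293% ± 0.011 after DT (SD, n = 6).

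Dnajb1, the J-domain co-chaperone that works with cytosolic HSP70, was the chaperone that separated the groups. The PBS-treated mice, in the order of their numbers 1 to 5, had 4867, 4880.3, 4978, 5840.0 and 4822 normalized counts of it. After DT the lowest mouse had 6558, the median was 7198 and the highest mouse had 8631 normalized counts. All 6 DT-treated mice lay above PBS 4, which was itself set off from the other 4 PBS-treated mice. The means were 5077 ± 430.1 (SD, n = 5) and 7479 ± 849 normalized counts (SD, n = 6), a log2 fold change of 0.56 (standard error 0.076) or 1.47-fold. The gene lies on chromosome 8 of GRCm38 from 83608193 to 83612653 in 4 merged exons, and 0% of the 75-base windows of its transcripts occur in another gene. In a bulk sample such as this, a change in the share of cells that hold a transcript and a change in transcript per cell cannot be told apart.

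Dnaja1, another J-domain partner of HSP70, had normalized counts of 771, 812, 839, 936 and 750.2 after PBS, in the same order of mice, and 863, 894 and 998 as the lowest, median and highest values after DT. PBS 4 reached into the range of the DT-treated mice, and 1 of those mice, DT 1, lay above it. The log2 fold change of 0.15 (standard error 0.062) was smaller than that of Dnajb1. The ratio of Dnajb1 to Dnaja1 was 5.93 to 6.43 after PBS and 6.89 to 9.34 after DT, without overlap, which follows from the values that led to the choice of Dnajb1 and was not tested. Of the windows of Dnaja1, 10.4% occur in other genes, mainly Gm15542.

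Among the cytosolic HSP70 genes, the stress-inducible Hspa1a showed the larger difference. Its values in the 5 PBS-treated mice were 883, 807, 873, 1262 and 733 normalized counts, and after DT they ran from 1115 over a median of 1461 to 1748. DT 1 lay below PBS 4 and the other 5 DT-treated mice lay above every PBS-treated mouse. The log2 fold change was 0.68 (standard error 0.127, 1.61-fold), and 912 ± 205 (SD, n = 5) stood against 1455 ± 226 normalized counts (SD, n = 6). Hspa1b, its neighbour on chromosome 17, had 3870 (PBS 1), 3127 (PBS 2), 3313 (PBS 3), 4683 (PBS 4) and 2554 (PBS 5) normalized counts after PBS and 4145, 4375 and 4606 as the lowest, median and highest after DT. PBS 4 exceeded all 6 DT-treated mice for Hspa1b, and the other 4 PBS-treated mice lay below them. The log2 fold change of Hspa1b was 0.35 (standard error 0.109), and its SD was 807 after PBS (n = 5) against 179.7 normalized counts after DT (n = 6).

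Reads of Hspa1a and Hspa1b cannot always be told apart. Of the 75-base windows of Hspa1a, 52.7% occur in Hspa1b, and 19.0% of the exon bases of Hspa1a overlap Gm20481 on the opposite strand. Summed as 1 gene, the pair had a log2 fold change of 0.43 (standard error 0.107). The ratio of Hspa1a to Hspa1b was 0.228 to 0.287 after PBS and 0.242 to 0.384 after DT, and DT 1, at 0.242, was the DT-treated mouse that fell inside the PBS range.

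Hspa8, which keeps clients folded in unstressed cells, had 12948, 10996, 12660.1, 12734 and 10573 normalized counts in the 5 PBS-treated mice, and 12815, 14214 and 15411 as the lowest, median and highest after DT. DT 3 was the only DT-treated mouse below the highest PBS-treated mouse, PBS 1. The log2 fold change was 0.25 (standard error 0.069), and 30.2% of its 75-base windows occur in Gm15459. Hsph1, the HSP110 exchange factor for HSP70, varied most among the PBS-treated mice, at 1909, 1585, 1384, 2278 and 1126 normalized counts. After DT its values ran from 1773 over a median of 1985 to 2166, inside the PBS range. Its log2 fold change of 0.30 (standard error 0.132) was 0.17 without PBS 5 and 0.42 without PBS 4.

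For Hsp90aa1, Hspb1 and the mitochondrial pair the groups overlapped as well. Hsp90aa1 had 2518 to 2984 normalized counts after PBS and 2849 to 3236 after DT, or a difference of 0.13 on the log2 scale (standard error 0.053), and 36.2% of its windows occur in Gm12346. Hspb1 had 18558 to 21248 after PBS and 20539 to 22992 after DT, likewise with 0.13 (standard error 0.057) on the log2 scale, or 0.07 with quantile normalization, and 46.4% of its windows occur in Hsp25-ps1. PBS 4, which was highest in the PBS group for 5 of the cytosolic chaperones, was the lowest of all mice for Hspb1. Of the mitochondrial pair, Hspd1 (HSP60) had 3052 to 3567 normalized counts after PBS and 3393 to 3762 after DT, which is 0.10 on the log2 scale (standard error 0.051) and 0.06 without PBS 5. Hspe1 (HSP10) had 845 to 1028 after PBS and 933 to 1253 after DT, which is 0.22 on that scale (standard error 0.072), and 5 of the 6 DT-treated mice lay above every PBS-treated mouse. The annotated exons of Hspd1 and Hspe1 overlap by 112 bases on opposite strands.

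**Figure D2:**
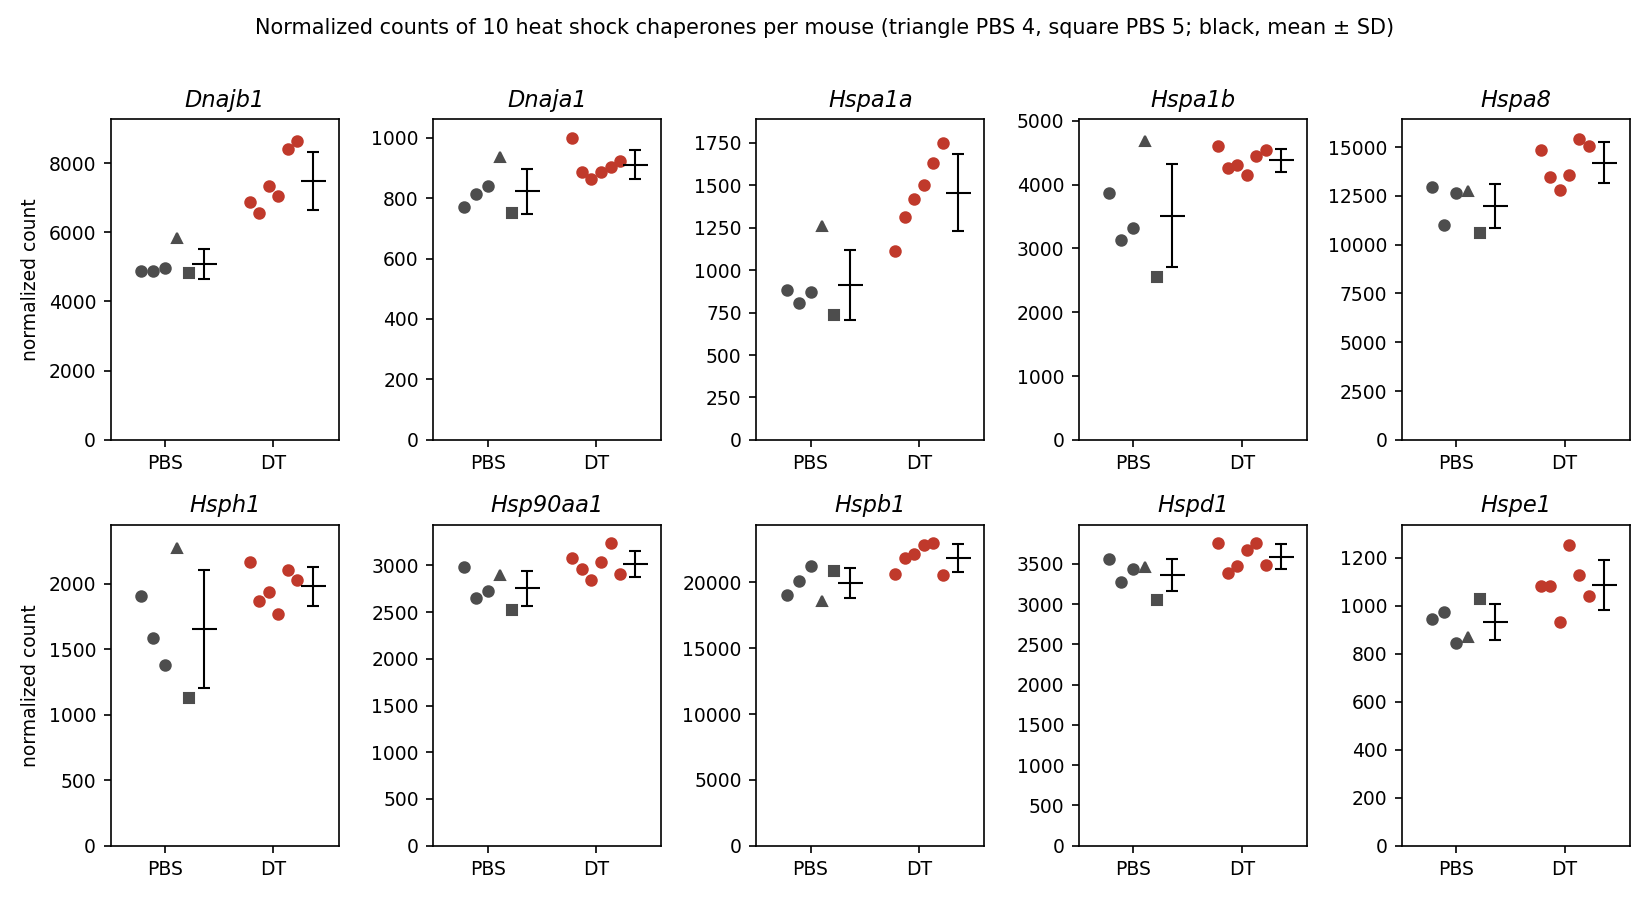
Normalized counts (vertical axes, starting at 0) of the 10 chaperones in each mouse, with 5 PBS-treated mice in grey, 6 DT-treated mice in red and the mean ± SD in black. Dnajb1 is the gene whose groups do not overlap, and PBS 4 (triangle) lies at or near the top and PBS 5 (square) at or near the bottom of the PBS group for Hspa1a, Hspa1b, Hsph1 and Dnaja1.

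Across the list the mean was higher after DT for 10 of 10 genes, and the median log2 fold change was 0.23, where the median over all 19170 genes was -0.01 and that over 10019 genes averaging 100 normalized counts or more was 0.02. At a limma adjusted p under 0.1, which is the study's threshold, 2 of the 10 genes, Dnajb1 and Hspa1a, were higher after DT, and 0.313% of all genes tested were called in this direction. In either direction 0.558% of all genes were called. Every DT-treated mouse lay above every PBS-treated mouse for 1 of the 10, Dnajb1, and for 0.902% of all genes. Because the genes were picked with this comparison in view, these counts describe the list and are read no further. The call of Dnajb1 held whichever of the 11 mice was left out. That of Hspa1a was lost without PBS 1, without PBS 2, without DT 5, without DT 6 and when it was summed with Hspa1b, and its log2 fold change ranged from 0.61 to 0.81 over the fits that left out a mouse. Hspa1b passed without PBS 4, with a log2 fold change of 0.46, and without both PBS 4 and PBS 5, with 0.36.

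The rest of the chaperone network was taken from 8 lists with 113 genes, of which 104 had values. They were set by function, with earlier results of these data known. By limma 0 of the 104 passed the threshold. An unadjusted p under 0.05 was found for 15 of the 104 (12 higher and 3 lower after DT), where 11.5% of all genes tested had one. Among genes averaging 100 normalized counts or more, 1454 of 10019 had one. A log2 fold change above 0 was found for 75 of the 104, or 72.1%, against 47.3% of all genes and 56.4% of those averaging 100 normalized counts or more. Their median of 0.06 was lower than that of the 10 chaperones.

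The lists differed in their medians. HSP90 and its co-chaperones had a median log2 fold change of 0.09 with 16 of 17 genes above 0, and the endoplasmic reticulum chaperones one of 0.09 with 14 of 15 above 0. Other mitochondrial chaperones and proteases had 8 of 9 genes above 0 with a median of 0.05, as had 7 of 8 other HSP70 and HSP110 genes with 0.05. The nucleotide exchange factors and regulators of HSP70 had a median of 0.02 (6 of 10 above 0), and the other small heat shock proteins one of 0.18 over 4 genes. The list of other J-domain co-chaperones, from the family of Dnajb1, was split evenly, with 17 of 33 above 0 and a median of 0.003. J-domain genes of the endoplasmic reticulum, such as Dnajb9, were counted with the chaperones of that compartment and not here. Heat shock transcription factors and their regulators were split too, with 4 of 8 above 0.

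None of the genes with the smallest p-values in these lists passed the threshold. Serpinh1, the collagen chaperone of the endoplasmic reticulum, had 1335 ± 138 normalized counts after PBS (SD, n = 5) and 1575 ± 104 after DT (SD, n = 6), with a log2 fold change of 0.24 ± 0.067 (standard error) and an adjusted p of 0.192 by limma. Dnajb9, a J-domain protein of the endoplasmic reticulum, had a log2 fold change of 0.43 (standard error 0.14). Fkbp5, an HSP90 co-chaperone induced by glucocorticoids, had one of 0.47 (standard error 0.15) at 83.2 and 114 normalized counts. For Chordc1, another HSP90 partner, the value was 0.25 (standard error 0.082). Clpx, the unfoldase of a mitochondrial protease, and Dnaja3, the mitochondrial J-domain protein, had 0.20 each (standard errors 0.057 and 0.062), and Hspa9, the mitochondrial HSP70, had 0.08. Smaller values were found for Dnajb2 (0.16), Dedd2 (0.16), Hspb8 (0.15), St13 (0.12), Bag5 (0.09) and Hspa4 (0.07), and for Hspa2, at 0.16, and Cryaa, at 0.31, the standard errors were 0.12 and 0.26. Hsf4, a heat shock factor, lay on the other side of 0 with -0.30 (standard error 0.14). In their promoters, 16 of 90 network genes with an entry had the paired element, in 16.2% of their 105 promoters, against 15.1% of all promoters.

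**Figure D3:**
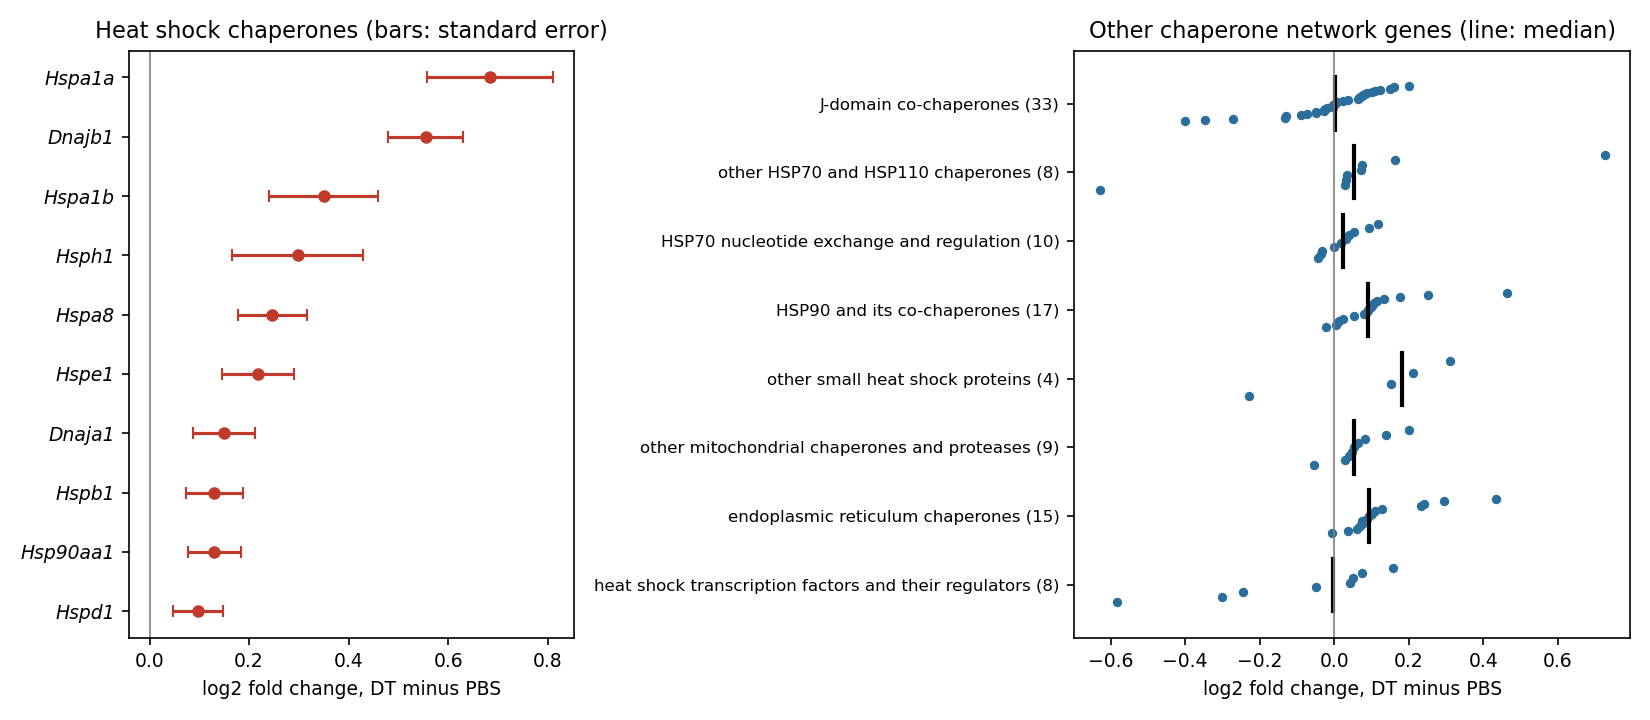
Log2 fold changes (horizontal axes, DT minus PBS) of the 10 chaperones with their standard errors (left) and of 104 other chaperone network genes in 8 lists, 1 point a gene with the median as a black line (right). All 10 chaperones lie above 0, from 0.10 for Hspd1 to 0.68 for Hspa1a, while the list medians of the network lie between about 0 and 0.18.

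To see which chaperones moved together from mouse to mouse, whatever the treatment, the group mean was subtracted from the log2 value of each gene and the deviations were correlated over the 11 mice. The 45 pairs had a median Pearson r of 0.40, and 30 of them were positive. Of the 45, 3 pairs had a p of r under 0.05 adjusted over these pairs (two-sided exact permutation), and 1 of them also by rho. The same counts were not made for pairs of other genes, which share the libraries and their scaling, so these counts have no baseline and describe the list.

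Hspa1b and Hsph1 correlated most closely, with r = 0.957 and Spearman's rho = 0.891 (exact permutation of mice within groups, p = 0.0027 and 0.0058, adjusted over 45 pairs 0.041 and 0.086), and r = 0.815 without PBS 4 and PBS 5, which lay farthest out. Hsp90aa1 and Hspd1 had r = 0.892 and rho = 0.900 (exact permutation, p = 0.00078 and 0.00058, adjusted 0.035 and 0.026), and r = 0.858 without DT 5 and PBS 1. Dnajb1 and Hspa1a had r = 0.845 and rho = 0.718 (exact permutation, p = 0.0027 and 0.017, adjusted 0.041 and 0.154), and r = 0.665 without DT 6 and PBS 4. For both of these genes PBS 4 was the highest PBS-treated mouse, and DT 6 and then DT 5 were the highest DT-treated mice. Each of the 3 pairs lost its adjusted call without PBS 1, PBS 4, PBS 5, DT 3, DT 4 or DT 5, that of Hspa1b and Hsph1 also without DT 2, and that of Dnajb1 and Hspa1a also without PBS 2, PBS 3 or DT 6. Among 10018 genes averaging 100 normalized counts or more, Hsph1 was 11th by likeness to Hspa1b, and Hspd1 was 6th by likeness to Hsp90aa1. Hspa1a was 13th by likeness to Dnajb1, and Dnajb1 was 22nd by likeness to Hspa1a. The correlations themselves stayed between 0.779 and 0.977 whichever mouse was left out.

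Hspa1a and Hspa1b, the pair with the most sequence in common, had r = 0.675 and rho = 0.500 (exact permutation, p = 0.041 and 0.143, adjusted 0.161 and 0.430). For Hspd1 and Hspe1, which share their repeat run, r was -0.06 and rho was 0.009 (exact permutation, p = 0.850 and 0.991, adjusted 0.869 and 0.991). Hspb1 and Hspe1 ran against most of the others, with a median r of -0.31 and -0.27 with the other 9 genes. The most negative pair, Hsph1 with Hspb1, had r = -0.740 and rho = -0.709 (exact permutation, p = 0.014 and 0.036, adjusted 0.092 and 0.184), and it did not pass the adjustment.

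**Figure D4:**
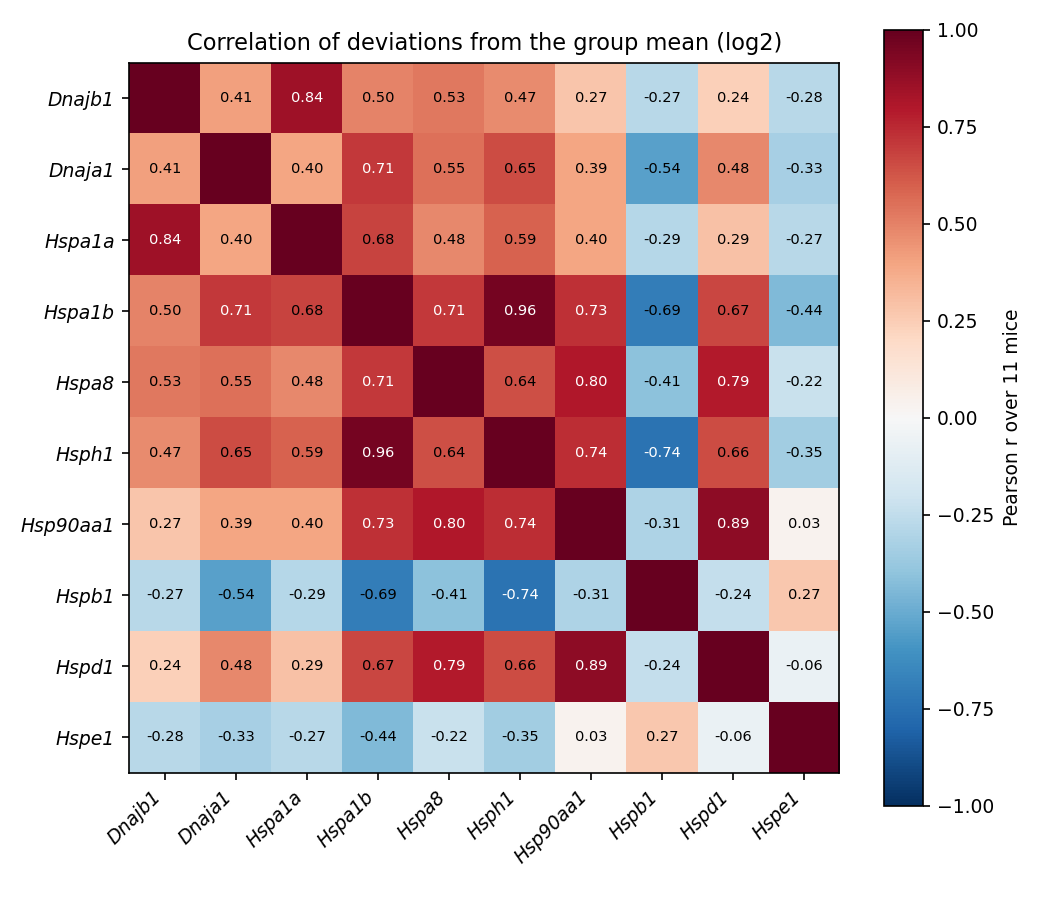
Pearson r (colour and printed value) between the log2 deviations of each pair of chaperones from the group mean over 11 mice. Hspa1b with Hsph1, Hsp90aa1 with Hspd1 and Dnajb1 with Hspa1a are the 3 pairs past an adjusted p of 0.05, and the rows of Hspb1 and Hspe1 are mostly negative.

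Other measures were set beside the chaperones in the same way. A list of 12 immediate early genes, which are transcribed within minutes of a stimulus and include Fos, Jun and Atf3, summed to 27170.0 to 67896 normalized counts after PBS and to 71830.2 to 114408 after DT. Of these 12 genes, 9 passed the limma threshold, all higher after DT. PBS 4 had the highest values of the PBS group for Fos (9475), Jun (12419) and Atf3 (731 normalized counts), as it had for Dnajb1, Hspa1a and Hspa1b, and PBS 5 had the lowest for all of these genes. The part of these genes in the differences of the chaperones was not tested.

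Within the groups, 7 of the 10 chaperones had an unadjusted p under 0.05 for the correlation with the mean of the immediate early genes (two-sided exact permutation), 6 of them positive, where 11.7% of 19158 genes outside that list had such a p, and 17.3% of those averaging 100 normalized counts or more. Adjusted over the 19158 genes, 0 genes had a p under 0.1, and the values for the chaperones lay between 0.259 and 0.616. This relation was tested gene by gene after that of the chaperone mean had been seen. For single chaperones, the r without PBS 4 and PBS 5 kept the deviations from the group means of all mice. Hspa1b had r = 0.922 and rho = 0.891 (exact permutation, p = 0.0010 and 0.0033), and r = 0.661 without PBS 4 and PBS 5. Dnajb1 had r = 0.757 and rho = 0.636 (exact permutation, p = 0.00079 and 0.018), and r = 0.792 without these mice. For Hsph1 r was 0.877 and rho 0.836 (exact permutation, p = 0.0061 and 0.0099), with r = 0.542 without PBS 4 and PBS 5.

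For Hspa1a r was 0.844 and rho 0.745 (exact permutation, p = 0.0029 and 0.014), with r = 0.627 without PBS 4 and PBS 5. Hspa8 had r = 0.677 and rho = 0.782 (exact permutation, p = 0.027 and 0.014), with r = 0.630 without them. Hspb1 ran in the opposite direction, with r = -0.685 and rho = -0.591 (exact permutation, p = 0.026 and 0.093), and r = -0.532 without both mice. For Dnaja1 r was 0.708 and rho 0.500 (exact permutation, p = 0.048 and 0.191), and r fell to 0.103 without them. Hsp90aa1, Hspd1 and Hspe1 had r of 0.569, 0.531 and -0.393 (exact permutation, p from 0.129 to 0.229). Whichever mouse was left out, r stayed between 0.644 and 0.811 for Dnajb1 and between 0.816 and 0.959 for Hspa1b. Of the other chaperone network genes, 16 of 104 (15.4%) had an unadjusted p under 0.05 in the same test, 5 of them positive. The share was 11.7% over all genes outside the immediate early list and 17.3% over those averaging 100 normalized counts or more. The median r of the 104 genes was -0.046.

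The mean deviation of all 10 chaperones had r = 0.936 and rho = 0.891 with the immediate early genes, given as a description because the list was picked with results known, and r = 0.777 without PBS 4 and PBS 5. With the number of reads in a library r was 0.142, and with the share of counts on mitochondrially encoded mRNAs it was -0.176. Between the groups, the 12 mitochondrially encoded mRNAs with values summed to 330642 to 837097 normalized counts after PBS and 274107 to 459171 after DT, with a median log2 fold change of -0.64 and 1 gene past the limma threshold, lower after DT. Their part in the differences of the chaperones was not tested. Against the marker lists of other cell types, r was 0.351 for fibroblasts, 0.203 for endothelium, -0.640 for skeletal muscle, -0.412 for T cells, -0.613 for macrophages and monocytes, -0.508 for neutrophils, -0.636 for Langerhans cells and -0.067 for melanocytes. The skeletal muscle list summed to 58.3 to 111 normalized counts after PBS and 56.9 to 110.6 after DT, and the Langerhans cell list to 2365 to 4967 and 1831 to 3142. Of these cell type lists, that of keratinocytes included, 0 genes passed the limma threshold.

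**Figure D5:**
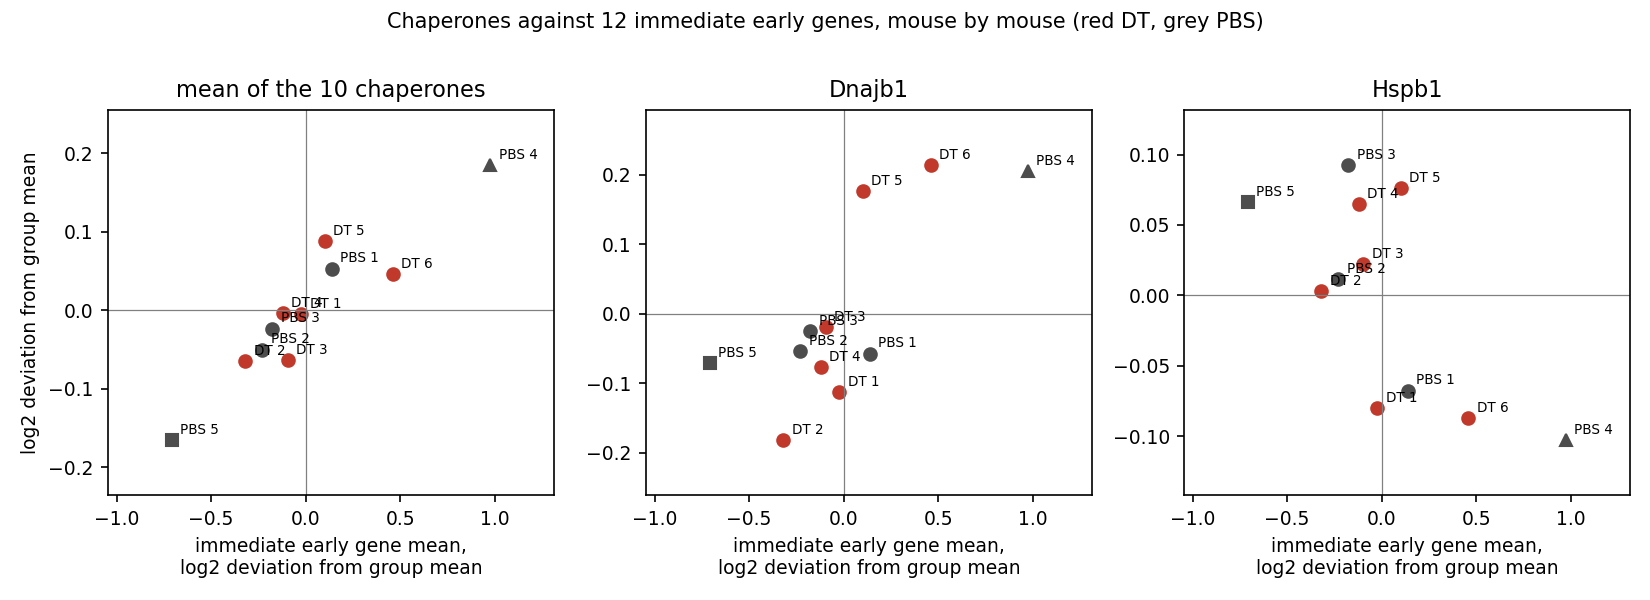
Log2 deviation from the group mean of the 10 chaperones averaged (left), of Dnajb1 (middle) and of Hspb1 (right) against that of the mean of 12 immediate early genes, 1 point a mouse (red DT, grey PBS). The left panel rises from PBS 5 to PBS 4 (r = 0.936), the middle panel rises (r = 0.757) and the right panel falls (r = -0.685).

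Of 10018 other genes that averaged 100 normalized counts or more, those whose deviations resembled those of Dnajb1 most over the 11 mice were Fbxo45, which encodes an F-box protein of a ubiquitin ligase (r = 0.960), Cav1, the coat protein of caveolae (0.907), Itga6, the integrin alpha 6 chain of hemidesmosomes (0.900), Gli3, a transcription factor of Hedgehog signaling (0.879), and Fam214a (0.876). They share the libraries and their scaling with Dnajb1, and they are the top of a ranking. Hspa1a was 13th in this ranking, and the next chaperone, Hspa8, was at place 620 with r = 0.530. Fbxo45 had 4186 ± 206 normalized counts after PBS (SD, n = 5) and 4745 ± 245 after DT (SD, n = 6), 0.18 higher on the log2 scale with a standard error of 0.050, which did not pass the threshold (adjusted p = 0.192 by limma). The other 4 had log2 fold changes between 0.11 and 0.29, and none of them passed.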

How the data were processed

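Gingival epithelium of 11 Langerin-DTR mice, 5 given PBS and 6 given DT, was profiled by mRNA sequencing, 1 library a mouse. The libraries are described as polyA-selected and stranded, and the study's reporting summary names a stranded mRNA kit. Its methods, however, process the reads by the QuantSeq guide, so the library type is not settled here. Per the labels, reads were trimmed with cutadapt (2.10), aligned with TopHat2 (2.1.1), counted with HTSeq (2.01) and normalized with DESeq2 (1.36.0). The submitters' processing notes name the build GRCm39, whereas the study's methods name GRCm38. The methods describe peeling the epithelium with forceps after incubation in Dispase for some experiments, and whether the sequenced tissue was among them is not given in the sources used here.

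The deposited values are counts per gene that the authors divided by a size factor for each library, and of 55414 rows 36244 hold no value. Divided by what 1 read is worth in a library, 100% of the lower values lay within 0.1 of a whole number. Higher values were rounded without this check, and the rounded values summed to the depth of 17509328 to 24325513 reads. The remaining 19170 genes, the least of which had 10 reads over all mice, entered limma (3.58.1, R 4.3.3) with a mean-variance trend on log2(normalized count + 1), a scale that understates the change of low genes, and p-values were adjusted by Benjamini-Hochberg over all of them, with the study's threshold of 0.1. The step was tested on simulated data.

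Correlations used deviations from the group mean and two-sided exact permutations over all 86400 orders of the mice within groups, with Benjamini-Hochberg adjustment. Where the farthest mice were left out, group means were taken anew over the remaining mice. For single chaperones against the immediate early genes, the means then stayed those of all mice. The labels do not say whether mice shared litters or cages, so p-values measure the spread between these samples. Positions came from GENCODE release M21 (GRCm38), in which 99.7% of genes matched, and promoters from RefSeq (GRCm38.p6). Genes named were the 10 chaperones, the 2 network genes of smallest p in each list averaging 10 normalized counts or more, the 5 genes most like Dnajb1, Fos, Jun, Atf3 and Cd207. The chaperones and all lists were chosen with earlier results of these data known, and the test of each chaperone against the immediate early genes, adjusted over all 19158 genes outside that list, was added after the relation of their mean had been seen. Alternatives were pseudocounts of 0.1 and 10, a minimum mean of 10, TMM and quantile scaling, array weights, a replicate block and leaving out mice.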

Additional observations from a re-analysis of the deposited data

Results flagged for a closer look

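In 70 groups of mice (the PBS and the DT group of each named gene), 4 single values lay farther from the rest of their group than Dixon's criterion allows, where chance alone gives about 1 in 20 groups. For Dnajb1, PBS 4 had 5840.0 normalized counts while the other PBS-treated mice had 4822 to 4978. For Hspa1a, PBS 4 had 1262 normalized counts against 733 to 883 in the others. PBS 4 was also set apart for Atf3, with 731 normalized counts against 107 to 169.7. Serpinh1 was high in PBS 3, with 1575 normalized counts against 1246 to 1322 in the other PBS-treated mice.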

How the results depend on the processing

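The log2 fold changes of the 10 chaperones stayed above 0 under every alternative run, which were pseudocounts of 0.1 and 10, a mean of at least 10 normalized counts, TMM scaling, quantile normalization, array weights, a replicate block, leaving out each mouse and leaving out PBS 4 with PBS 5. Their median was 0.19 to 0.27 when a mouse was left out, and TMM and quantile normalization moved the median of all genes by 0.002 and 0.01. Of the chaperones, 1 to 3 passed the threshold when a mouse was left out, and 0 to 2 of the other network genes did. The number of genes past the threshold, 107, was 27 to 259 without single mice, 189 with array weights and 35 with the replicate block. Correlations between the deviations of same-numbered mice ran from -0.233 to 0.324, and the labels do not say that these numbers pair the mice. For PBS 5 the library title holds another number than the replicate, and a pairing by library number was not tested. The block by replicate number left 2 chaperones and 0 network genes past the threshold. DT 6 has no PBS-treated mouse of its number, so this block took it out of the comparison. The log2 fold changes therefore equalled those without DT 6, such as 0.51 for Dnajb1 and 0.63 for Hspa1a. Of the pairs of chaperones, 0 to 6 passed the adjusted p of 0.05 without single mice, and the correlation of the chaperone mean with the immediate early genes was 0.871 to 0.967. Promoter matches fell from 7 genes with the pair to 3 with the triplet, as the triplet contains the pair. The causes of the other shifts were not tested. The count tests planned with 2 tools were not run. Whole reads were not accepted as recovered for 2 libraries in which 1 read was worth about 1 normalized count. The recovered reads were used for depth alone. Alternatives for the immediate early genes, for PBS 4 with PBS 5 and for the principal transcript were chosen after seeing the data.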
